A study of Mus musculus with 8 samples.

Results

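The loci described here are 4 windows of the mouse genome (build mm9) that carry 8 apolipoprotein genes: Apoa1, Apoc3, Apoa4 and Apoa5 on chromosome 9 from 45.98 to 46.13 Mb, Apob on chromosome 12 from 7.92 to 8.08 Mb, Apoe and Apoc1 on chromosome 7 from 20.21 to 20.36 Mb, and Apoa2 on chromosome 1 from 173.10 to 173.21 Mb. A member is any listed binding site that overlaps a window by at least 1 bp, and 48 of the 28196 sites in the 4 lists did. The windows were chosen by the genes they hold with counts of listed sites in view, so the numbers of members are a description of these loci and carry no test. The lists name no genes, and a site is tied here to a window and not to a gene within it.

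The sites came from chromatin immunoprecipitation with sequencing (ChIP-seq), which finds the DNA that a protein occupies. Foxa2 and Hdac3 were each precipitated from frozen liver of wild-type C57BL/6 mice, a standard inbred strain. The mice were young, at 3 months, or old, at 21 months. There were 8 libraries, 2 for each combination of protein and age, and each such pair was represented by 1 list: 6604 sites for young Foxa2, 12834 for old Foxa2, 5828 for young Hdac3 and 2930 for old Hdac3. No value below therefore has a replicate error, the depth of the libraries was unknown, and no difference between the ages was tested. The material was whole liver, so a shift in the share of hepatocytes and a shift in binding per cell cannot be told apart.

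Apolipoproteins are the proteins that wrap lipid into lipoprotein particles and steer those particles to enzymes and receptors, and the liver is a main source of them. Foxa2 is a forkhead transcription factor of hepatocytes that can bind DNA in closed chromatin and helps keep liver genes accessible. Hdac3 is a histone deacetylase that acts inside nuclear receptor corepressor complexes and restrains lipid genes in liver.

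Foxa2 was listed in all 4 apolipoprotein windows at both ages, and the old list held 31 sites there against 11 in the young list. Hdac3 was listed at 6 places at 3 months, 5 of them in the Apoa1 cluster and 1 in the Apob window, and at none at 21 months. The whole Hdac3 lists held 0.226 young and 0.114 old sites per 100 kb, and the windows span 570 kb in all. At so low a density the absence of old Hdac3 sites does not set the windows apart from that list. Of the 11 young Foxa2 sites, 8 overlapped an old Foxa2 site, and these 8 places were spread over all 4 windows. No Foxa2 site in the windows overlapped an Hdac3 site.

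**Figure D1:**
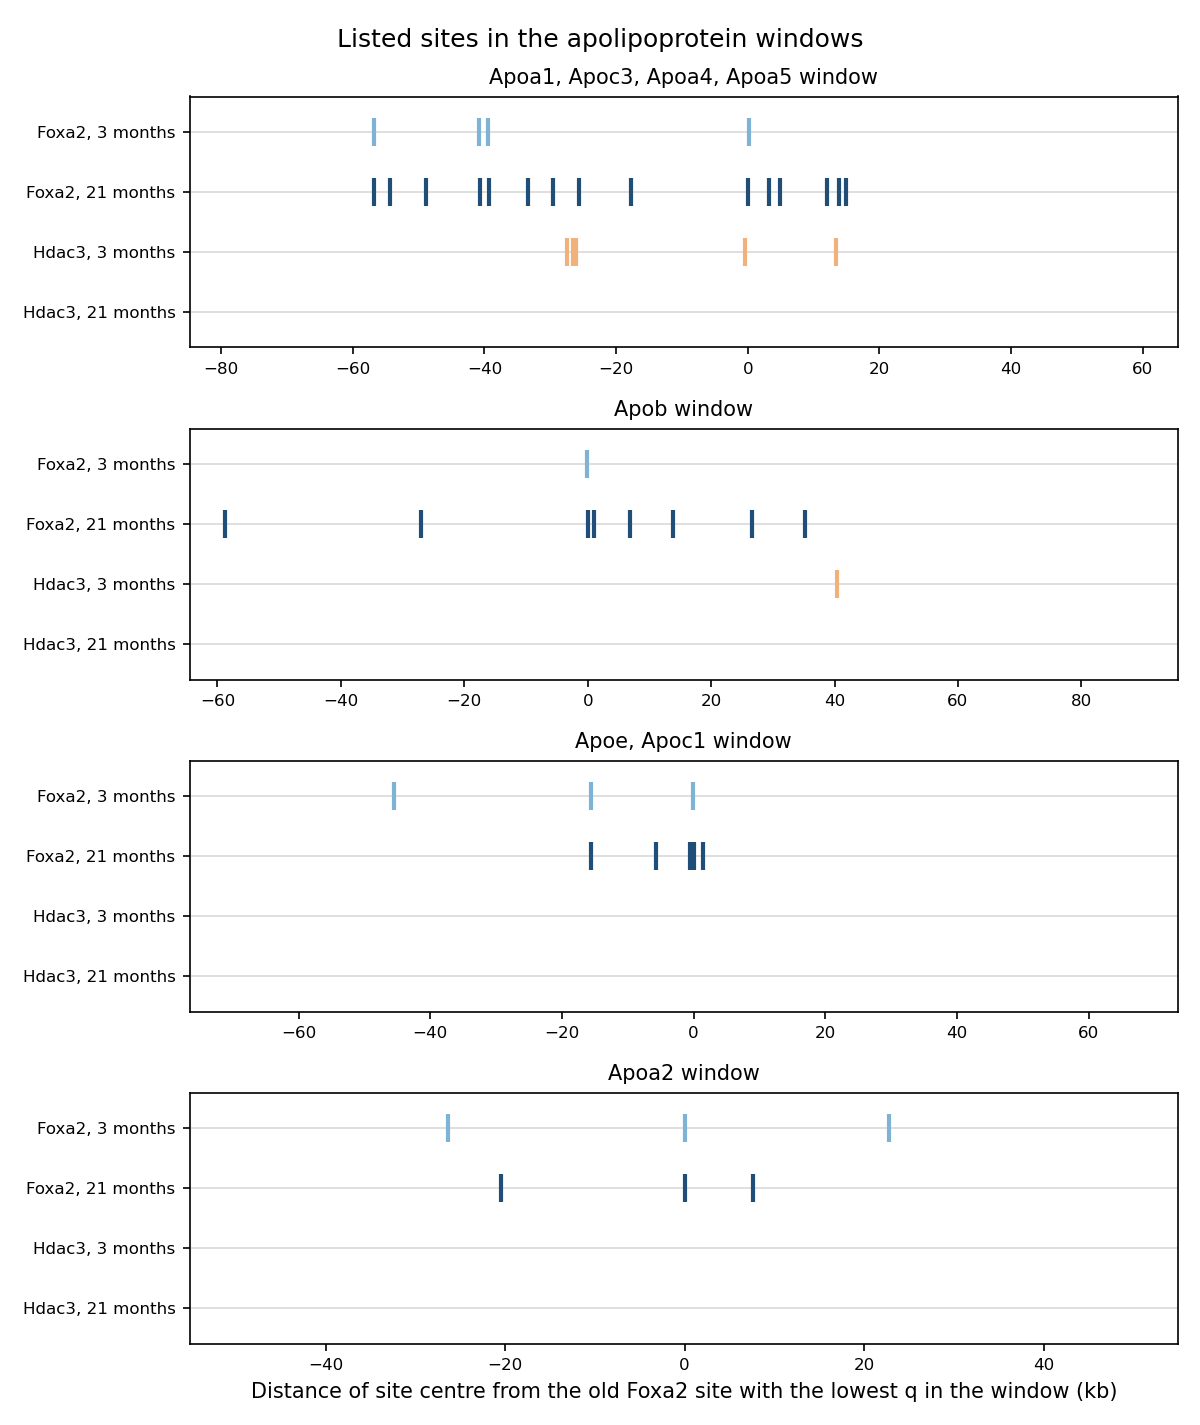
Listed sites in each window, by list; the x axis gives the distance in kb of a site's centre from the old Foxa2 site with the lowest q in that window, each panel spans its whole window, and each tick is 1 site. The Apoa1 cluster shows 15 old Foxa2 sites and 5 young Hdac3 sites, and the row of old Hdac3 is empty in every panel.

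The old to young ratio of Foxa2 sites was 2.82 in the windows and 1.94 in the whole lists. Read by window, the Apoa1 cluster went from 4 young to 15 old sites, the Apob window from 1 to 8, the Apoe and Apoc1 window from 3 to 5, and the Apoa2 window held 3 at each age. The full old list thus had more sites in 3 of the 4 windows, most of them in the Apoa1 cluster and the Apob window, and the counts at Apoa2 were equal. When the old list was shortened to the 6604 sites of lowest q, the length of the young list, 19 old sites remained in the windows and the ratio was 1.73. The old and young counts were then equal in the Apoe and Apoc1 window as well as at Apoa2. The remaining excess of old sites lay in the Apoa1 cluster and the Apob window, and was larger at Apob.

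Foxa2 sites were denser than in the whole list in each of the 4 windows, at both ages. The Apoa1 cluster had 10 old Foxa2 sites per 100 kb and the Apob window 5.0, against 0.498 over the stretch of the chromosomes that the lists span. For young Foxa2 the densities ran from 0.625 per 100 kb at Apob to 2.73 at Apoa2, against 0.256 over the whole list. Of 25775 tiles of 100 kb, 18.3% held a young Foxa2 site, 27.2% an old Foxa2 site, 17.2% a young Hdac3 site and 9.21% an old Hdac3 site, whereas 4, 4, 2 and 0 of the 4 windows did. The windows are longer than these tiles and were picked for liver genes, so nothing is read from the contrast. Among 17188 tiles of 150 kb, the length of the Apoa1 window, 0.00582% (1 tile) held 15 or more old Foxa2 sites and 0.303% held 5 or more young Hdac3 sites. Both limits were set at the Apoa1 window's own counts. The tiles follow a fixed grid, and a tile edge fell inside the cluster, so its own tiles did not reach these counts. Nothing is read from these shares either.

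**Figure D2:**
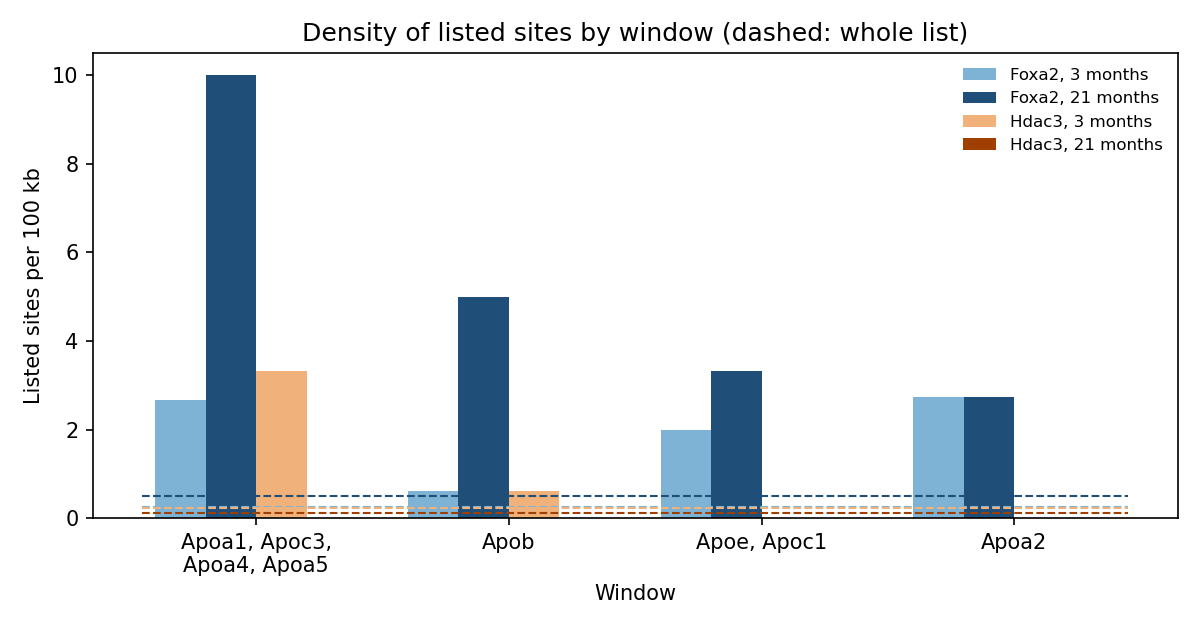
Listed sites per 100 kb (y axis) in each window (x axis), with 1 bar per list and a dashed line of the same colour at the density of the whole list; no bar has an error because each group is 1 list. The bar for old Foxa2 reaches 10 in the Apoa1 cluster and 5.0 at Apob, and old Hdac3 has no bar.

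The Apoa1 cluster on chromosome 9 holds, in the gene order of RefSeq, Apoa1, the main protein of high-density lipoprotein, Apoc3, which slows the breakdown of triglyceride-rich particles by lipoprotein lipase, Apoa4, a lipid-binding protein made in intestine and liver, and Apoa5, which promotes that breakdown. Its 15 old Foxa2 sites lay between positions 46007794 and 46079693, a stretch of 71.9 kb, and its 4 young sites lay within 57.0 kb of the same stretch. All 4 young sites overlapped an old one.

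The widest Foxa2 site of all the windows lay in this cluster, at chr9:46064338-46065087 in the old list. It measured 750 bp, had an authors' enrichment of 14.4 and a q of 1.1e-08, and stood at rank 299 of the old list. The young list placed a site of 71 bp inside it, at chr9:46064822-46064892, with an enrichment of 16.8, a q of 0.0146 and rank 1649. Enrichment is the fold value that the authors gave each site, what it is relative to was not given, and ranks by q from lists of unequal length do not measure a change.

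A second place in the cluster with a low q in the old list was chr9:46023750-46024194, 445 bp wide, with a q of 9.1e-08 and rank 433. Its young counterpart, chr9:46023844-46023912, was 69 bp wide, with a q of 0.0197 and rank 1905. At a gap of 1106 bp a weaker pair followed, 102 bp wide in the old list (chr9:46025300-46025401, q 0.0442, rank 6478) and 35 bp wide in the young list (chr9:46025288-46025322, q 0.0387, rank 5134). This was the only pair of the 8 whose young site was not wholly inside the old one, and they shared 23 bp.

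The fourth pair lay nearest the start of the window. The old site ran over chr9:46007794-46008108, 315 bp, with an enrichment of 23.3, a q of 6.38e-05 and rank 1314. The young site ran over chr9:46007931-46008028, 98 bp, with an enrichment of 15.7, a q of 0.00362 and rank 890, the best rank of any young site in the cluster.

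The other 11 old sites of the cluster had no young counterpart. The 2 with the lowest q were chr9:46076590-46076832, 243 bp wide with a q of 0.00327, and chr9:46038990-46039266, 277 bp wide with a q of 0.00521. At the other end, 4 sites had the loosest q of the old list, 0.12, and were 35, 10, 9 and 12 bp wide. By q, the cluster therefore mixed some of the best-ranked and some of the worst-ranked entries of the old list. Enrichment did not follow that order. The sites of 10 and 12 bp had enrichments of 145 and 141, the highest of the old members, and those of 35 and 9 bp had 12.3. The old sites of 750 and 445 bp, which had the lowest q of the cluster, had 14.4 and 21.1.

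The RefSeq promoter table (build GRCm38.p6) held 6 of the 8 genes, and did not hold Apoc3 or Apoc1. The 250 bases before each start were searched on both strands for 3 forkhead core sequences, namely TGTTTAC, its variant TGTTTGC and the form TATTTAC. They differ in their letters, so no place matches more than 1 of them. Genes with several starts have several promoters there, 10 in all for these 6 genes. At least 1 match was found in 5 of the 10 promoters, which belong to 4 genes (Apoa1, Apoa5, Apob and Apoa2), and in 9.73% of all 32851 promoters in the table. The 2 Apoa5 promoters overlap and hold the same match. TGTTTGC was in 4.3% of all promoters and TGTTTAC in 3.17%. No match was found in the windows searched for Apoa4 and for the 3 starts of Apoe. A match is a description of the sequence, not a bound site, and these promoters are on another build than the ChIP-seq sites, so their positions cannot be set beside each other.

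For each gene with a match, 1 promoter with a match is printed here or further below, 5′ to 3′ on the strand of the gene, with the matches in capitals. The second Apoa5 promoter, which overlaps the printed one, is left out. The Apoa1 promoter (GRCm38.p6, chr9:46228380-46228629, plus strand) held TGTTTGC at 2 places, from -88 to -82 and from -75 to -69 counted from the start, and 2 or more matches were present in 0.758% of all promoters. The Apoa5 promoter (chr9:46268358-46268607, plus strand) held TGTTTGC from -75 to -69.
Apoa1: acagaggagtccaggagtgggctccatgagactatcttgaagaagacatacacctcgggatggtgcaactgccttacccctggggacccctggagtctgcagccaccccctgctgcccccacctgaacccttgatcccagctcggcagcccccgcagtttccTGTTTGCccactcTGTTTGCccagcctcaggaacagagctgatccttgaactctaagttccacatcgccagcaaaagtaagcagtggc
Apoa5: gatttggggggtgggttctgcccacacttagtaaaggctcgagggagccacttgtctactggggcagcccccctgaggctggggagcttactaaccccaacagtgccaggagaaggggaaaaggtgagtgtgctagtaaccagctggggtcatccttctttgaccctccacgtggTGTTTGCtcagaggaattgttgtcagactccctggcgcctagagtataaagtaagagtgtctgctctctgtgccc

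Apob encodes the large structural protein of very-low-density lipoprotein and of the particles that derive from it, and the low-density lipoprotein receptor recognises it. Its window held 8 old Foxa2 sites spread over 94.1 kb and 1 young site. The only place listed at both ages was chr12:7984301-7984554 in the old list, 254 bp wide with an enrichment of 18.7, a q of 0.000173 and rank 1535. Inside it lay the young site, chr12:7984349-7984406, 58 bp wide with an enrichment of 7.08, a q of 0.0198 and rank 1927.

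Of the old Apob sites without a young counterpart, that of lowest q lay 977 bp from that young site. It ran over chr12:7985383-7985510, 128 bp wide with a q of 0.000543. The next, chr12:7957286-7957401, was 116 bp wide with a q of 0.00696. The remaining 5 had q values from 0.0112 to 0.0959, and 4 of them lay at higher positions than the shared place, up to 8019707. Old Foxa2 sites therefore stood on both sides of the shared place, while the young list had no further site in the 160.0 kb.

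The Apob promoter (GRCm38.p6, chr12:7977427-7977676, plus strand) held TGTTTGC on the opposite strand, read as GCAAACA from -121 to -115. The Apoa2 promoter (chr1:171224804-171225053, plus strand) was the only one of these with TGTTTAC, from -77 to -71, and the promoter of another Apoa2 start had no match.
Apob: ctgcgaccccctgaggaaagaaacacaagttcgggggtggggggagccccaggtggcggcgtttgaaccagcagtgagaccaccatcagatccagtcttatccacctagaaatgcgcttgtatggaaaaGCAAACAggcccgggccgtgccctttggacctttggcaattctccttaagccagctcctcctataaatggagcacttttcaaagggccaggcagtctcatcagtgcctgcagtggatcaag
Apoa2: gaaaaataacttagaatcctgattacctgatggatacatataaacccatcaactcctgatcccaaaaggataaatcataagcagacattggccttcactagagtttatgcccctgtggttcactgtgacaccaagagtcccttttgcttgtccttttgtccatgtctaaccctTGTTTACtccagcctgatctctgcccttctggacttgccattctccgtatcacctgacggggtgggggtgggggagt

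Apoe is the ligand by which remnant particles are taken up through receptors in liver, and Apoc1 is a small protein of the same particles that hinders this uptake. Their window had the best-ranked member of all. The old Foxa2 site chr7:20286328-20286647 was 320 bp wide, with an enrichment of 55.9, a q of 9.89e-13 and rank 88 of 12834. The young site inside it, chr7:20286355-20286483, was 129 bp wide with an enrichment of 11.5, a q of 0.00084 and rank 499 of 6604, the best rank of the 11 young members. This place thus led the members in both lists.

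A second shared place lay 15.4 kb before it, measured between the old sites. The old site, chr7:20270827-20270970, was 144 bp wide with an enrichment of 53.4 and a q of 0.000515. The young site, chr7:20270879-20270960, was 82 bp wide with an enrichment of 28.5 and a q of 0.00893. These widths differed by 1.76 times, the smallest ratio among the 8 pairs.

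The Apoe and Apoc1 window also had 3 old sites that overlapped no young site. They were chr7:20280753-20280853 with a q of 0.0196, chr7:20285862-20285933 with a q of 0.0731, and a site of 44 bp with a q of 0.11. The second of these lay 422 bp from the young site of the leading place, the shortest such distance of any old-only member. The young list had 1 site of its own, chr7:20241023-20241028, only 6 bp wide, with an enrichment of 175 and a q of 0.0315.

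Apoa2, the second protein of high-density lipoprotein, had 1 place listed at both ages. In the old list it was chr1:173155004-173155195, 192 bp wide with an enrichment of 20.7, a q of 8.19e-07 and rank 623. In the young list it was chr1:173155075-173155174, 100 bp wide with an enrichment of 18.0, a q of 0.00229 and rank 736.

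The other sites of the Apoa2 window differed between the lists. The old-only sites were chr1:173162676-173162795, with a q of 0.00402 and an enrichment of 50.2, and chr1:173134606-173134752, with a q of 0.0114 and an enrichment of 33.2. The young-only sites were chr1:173128676-173128773, with a q of 0.0201 and an enrichment of 5.59, and chr1:173177859-173177889, with a q of 0.0804 and an enrichment of 3.59. This was the only window with more than 1 young-only Foxa2 site, and its counts were equal although only 1 of its 3 sites was common to the ages.

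Over all windows, 8 of 11 young Foxa2 members overlapped an old site, 72.7% (exact 95% interval 39.0 to 94.0, counting error only), against 40.7% of the whole young list. Of the old members 8 of 31 overlapped a young site, 25.8% (11.9 to 44.6), against 21.0% of the whole old list. The interval of the young share reaches down to the share of the whole list, and the interval of the old share holds its background. With the old list shortened to the length of the young list, 8 of 19 old members (42.1%) overlapped a young site, against 36.8% of the shortened list. Keeping sites of either age with q up to 0.05 also gave 8 of 19, against 33.1% of the old sites so kept. Under a stricter rule, in which the common stretch had to make up at least 50% of each site, 2 pairs were left, that at Apoa2 and the second place of the Apoe and Apoc1 window, or 18.2% of the young and 6.45% of the old members. That rule cannot keep a pair whose widths differ more than 2 times, so the drop was set by the widths. Shares of the whole lists under it were not computed, so these 2 shares are not comparable with those above.

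The old site was wider in 8 of the 8 pairs, and the same held for 90.9% of the 2700 overlapping pairs in the whole lists. The median ratio of old to young width was 3.06 over the members, with a range from 1.76 to 10.6, and 1.98 over all pairs. The largest ratios, 10.6 and 6.45, both belonged to the Apoa1 cluster. In 7 of the 8 pairs the young site lay wholly inside the old site, against 75.5% of all pairs, and the centres of a pair were 21.0 to 144.5 bp apart. The width of a listed site can move with read depth, which was unknown for these libraries, and its part in these ratios was not tested.

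**Figure D3:**
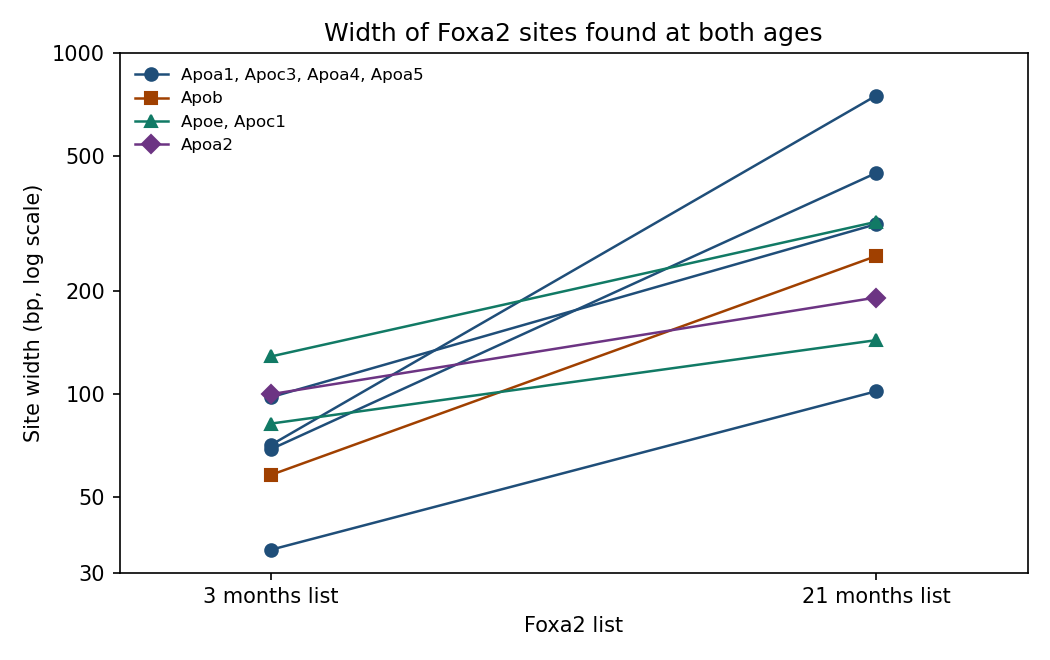
Width in bp (y axis, log scale) of the 8 Foxa2 sites found at both ages, in the young and the old list (x axis); each line joins an overlapping pair and its symbol gives the window. Every line climbs, from 35 to 129 bp in the young list to 102 to 750 bp in the old list.

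Members found at both ages stood high in the old list by q. Their median rank lay at 7.55% of that list, and 7 of 8 had a q of at most 0.01. The 23 old-only members had a median rank at 65% of the list, and 5 of 23 had such a q. Over the whole old list shared sites had a median rank at 14.6% and old-only sites at 59.0%, so this order was that of the list as a whole. Enrichment did not separate the members in this way. Its median was 20.9 for the shared old members and 20.8 for the old-only members, against 27 and 21.4 in the whole old list.

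Counting shared and unshared members together, 12 of 31 old members (38.7%) had a q of at most 0.01, against 30.8% of the old list, and 4 of 11 young members (36.4%) did, against 21.1% of the young list. The exact 95% intervals ran from 21.8 to 57.8% and from 10.9 to 69.2% and include those backgrounds. By width, the shared old members had a median of 284.5 bp and the old-only members 100.0 bp, against 161.0 and 90.0 bp for these classes in the whole old list.

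**Figure D4:**
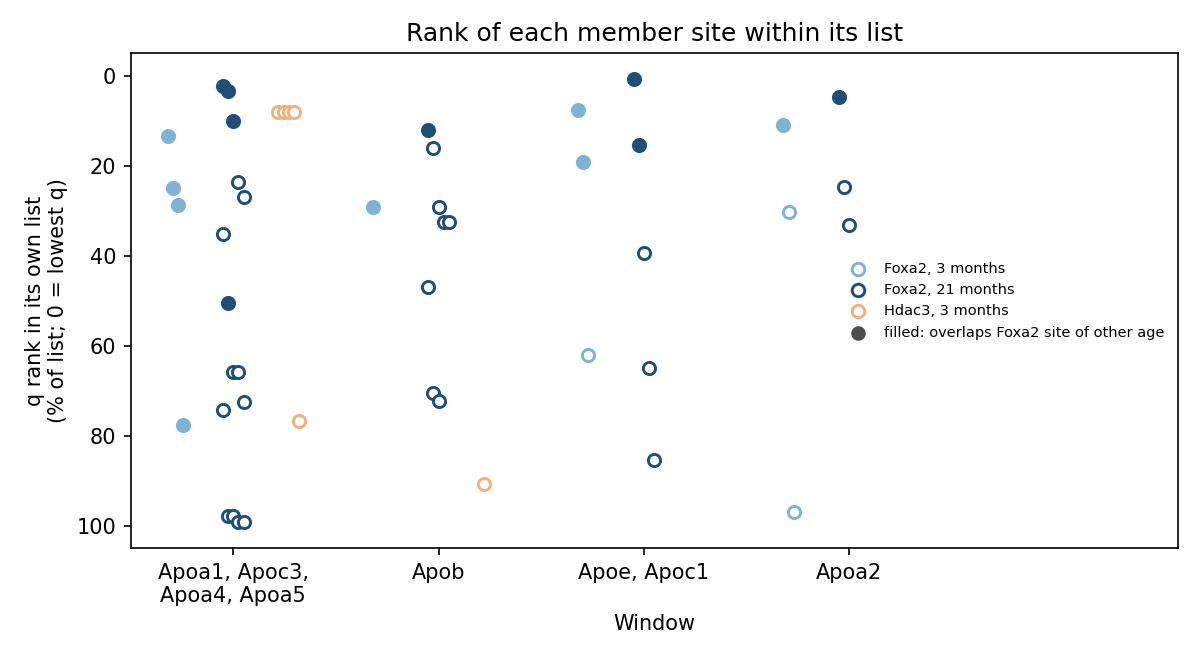
Rank of each member by q within its own list, as a percentage of the list with low values at the top (y axis), by window (x axis); colour gives the list and a filled point overlaps a Foxa2 site of the other age. Filled old Foxa2 points lie at 15.4% or better except for 1 at 50.5% in the Apoa1 cluster, and 4 of the 6 young Hdac3 points sit together near 8%.

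Old-only Foxa2 members by definition touch no young Foxa2 site, and their distances to the nearest one varied widely. The distance to the nearest young site ran from 422 to 58676 bp with a median of 7838 bp, and 13 of 23 (56.5%) were within 10000 bp, against 17.4% of old-only sites in the whole list. Windows with several young sites bring such distances down in advance, and the windows were chosen with the sites known.

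Hdac3 was listed in the young Apoa1 cluster at 5 narrow sites. The first 3 lay close together, at chr9:46037260-46037273 with a q of 0.157, chr9:46038230-46038236 with a q of 0.0853, and chr9:46038662-46038691 with a q of 0.0853. The last of these was 299 bp from the old-only Foxa2 site at chr9:46038990-46039266. The other sites of the cluster were chr9:46064312-46064325 and chr9:46078101-46078125, both with a q of 0.0853.

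The site at 46064312 lay beside the widest Foxa2 site. Its end was 13 bp from the begin of the old Foxa2 site of 750 bp and 497 bp from the young Foxa2 site inside it. It was the only young Hdac3 member within 10000 bp of a young Foxa2 site. How many sites of the whole young Hdac3 list lay that near was not computed, so nothing is read from this count. The sixth Hdac3 site, chr12:8024868-8024917 in the Apob window, had a q of 0.184 and was 5161 bp from the nearest old Foxa2 site.

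Of the 6 young Hdac3 members, 5 lay within 2000 bp of an old Foxa2 site, against 11.8% of the young Hdac3 list. These 5 share the cluster that has 15 old Foxa2 sites in 150 kb, so they are not separate loci, and the comparison sets lists of different ages side by side. For overlap itself the count was 0 of 11 young Foxa2 members with a young Hdac3 site (3.23% in the whole list), 0 of 31 old members with an old Hdac3 site (1.22%) and 0 of 31 old members with a young Hdac3 site (2.05%). The exact 95% intervals of these shares reach 28.5% for 11 sites and 11.2% for 31 sites, above the backgrounds, so these counts do not set the windows apart from the lists.

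The Hdac3 members were narrow, as was their list. Their widths were 7 to 50 bp and 4 of 6 were under 30 bp, against 56.3% of the young Hdac3 list. No q was 0.05 or lower, and 4 of 6 were 0.1 or lower, against 22.1% of that list. Their enrichment ran from 6.68 to 201. The 4 with a q of 0.0853 all lay in the Apoa1 cluster and held ranks 467 to 471 of the young Hdac3 list.

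The absence of old Hdac3 sites depended on where the windows end. The Apoe and Apoc1 window had old Hdac3 sites just outside both of its edges, chr7:20206921-20206948 at 3.05 kb before the start and chr7:20366165-20366194 at 6.17 kb after the end, each with a q of 0.053 and 28 and 30 bp wide. The nearest old Hdac3 sites to the Apoa2 window were 49.8 and 39.5 kb away, and the nearest to the Apoa1 cluster was 52.7 kb away. Around Apob none was nearer than 1965 kb. With each window lengthened by 50 kb at both ends, 4 old Hdac3 sites entered and the young Hdac3 count stayed at 6.

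Foxa2 sites just outside the edges were found as well. A pair of both ages lay 0.647 kb (old) and 0.681 kb (young) before the Apoa2 window, another 16.8 kb after the Apob window at chr12:8096803-8096935 in the old list, and another 43.2 kb after the Apoe and Apoc1 window in the young list. Just inside, the member nearest to an edge was the old Foxa2 site 5.61 kb from the start of the Apob window. In RefSeq's order of protein-coding genes the cluster of Apoa1 to Apoa5 stands between Sik3 and Zpr1, Apob between Klhl29 and Ldah, Apoc1 and Apoe between Apoc4 and Tomm40, and Apoa2 between Tomm40l and Fcer1g. Whether the windows reach these neighbours, and which gene a site serves, was not analysed here.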

How the data were processed

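Foxa2 and Hdac3 ChIP-seq of liver was deposited as 4 lists of sites, 1 per protein and age, each for 2 libraries by the labels' descriptions. Per the submitters' processing notes BWA and mm9 were used. For the peak caller, the control and the pooling of libraries, the sources used here give nothing. Each deposited site has, per the file headers, a begin, an end, a fold enrichment (a ratio by the authors) and a q-value by the authors. Depth per library was unknown. Whether positions count from 0 or 1 is not stated, and they are printed as deposited.

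From these, sites overlapping a window were taken, both ends belonging to a site (width is end minus begin plus 1). Sites were ranked by q, ties by higher enrichment. Overlap means at least 1 bp, and distances are differences of edge positions. Intervals are exact (Clopper-Pearson, 95%) and cover counting error only. Tiles of 100 kb and 150 kb run from the first to the last site of any list on each chromosome, and a site belongs to the tile of its centre. Members and lists were chosen with earlier results of these data known. Sites named singly are those found at both ages, all Hdac3 sites, and the 2 others of lowest q per Foxa2 list and window; the Foxa2 and Hdac3 sites just outside a window and the narrow 0.12 q sites were named after their values were seen. Promoters are RefSeq's (GRCm38.p6). The counting of overlaps was tested on simulated data. Computations used Python 3.11.15 with pandas 2.3.3, intervals came from scipy 1.17.1, and plots from matplotlib 3.10.9. Other lipoprotein genes were not located, as no mm9 annotation was used here.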

Additional observations from a re-analysis of the deposited data

Results flagged for a closer look

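The number of listed sites in the apolipoprotein windows was higher in the old list for Foxa2 and lower in the old list for Hdac3. The old list minus the young list was 20 sites for Foxa2 (31 and 11) and -6 sites for Hdac3 (0 and 6). This stood out because the direction differed between the proteins under the same comparison of ages. The difference was not tested, since each protein and age had 1 list, and the whole lists had the same directions, with old to young ratios of 1.94 and 0.503. With 0.114 old Hdac3 sites per 100 kb in the whole list, a count of 0 does not set these windows apart from it.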

How the results depend on the processing

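The Foxa2 ratio of old to young members stayed above 1 under the 8 settings tried for it, from 1.73 with lists of equal length to 3.0 with q of at most 0.01. At that q the whole lists held 3954 old and 1393 young Foxa2 sites, so the old list was the longer there too. The full lists had a ratio of 1.94. Outside the setting of equal lengths, a ratio above 1 was therefore not particular to the windows. Counts moved by more than 1.5 times under some settings, and where the setting does not itself remove sites or add length the cause was not tested. With q of at most 0.05, 19 old Foxa2 and 0 young Hdac3 members were left. With q of at most 0.01, 4 young Foxa2, 12 old Foxa2 and 0 young Hdac3 members were left. Windows lengthened by 50 kb held 4 old Hdac3 sites. Asking that the common stretch be at least 50% of each site left 18.2% of young and 6.45% of old members shared, and a median width ratio of 1.84 over 2 pairs. That rule drops any pair whose widths differ more than 2 times, so the lower shares and a ratio below 2 followed from the widths. With edges within 500 bp, 1 young and 3 old Foxa2 members had a young Hdac3 site, and within 10000 bp these were 1 and 11. The old counts compare lists of different ages, and no old Foxa2 member had an old Hdac3 site within either distance. Most of the 11 lay in the Apoa1 cluster, around its young Hdac3 sites. The shares of the whole Foxa2 lists within these distances were not computed, so nothing is read from these counts. Chosen after seeing the data were sites of at least 30 bp, with 2 young Hdac3 members, and leaving out the Apoa1 cluster, with 7 young Foxa2, 16 old Foxa2 and 1 young Hdac3 members. The other 36 of 53 values stayed within 1.5 times or within the counting interval. That interval was wide, 1.38 to 6.21 for the Foxa2 ratio and 39.0 to 94.0% for the young share. The whole-list ratio of 1.94 lies inside the former. Staying within such an interval is therefore a weak sign of stability. Leaving out a library was not possible, as the lists join the libraries of a group. No paired analysis was possible because the lists hold no value per library. Read depth was unknown, so how far it limits the site counts was not tested.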
